A study of Mus musculus with 54 samples.

Results

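Zfp981, Zfp990, Zfp991 and Zfp992 are 4 related mouse genes for zinc-finger proteins on chromosome 4, taken by symbol from count tables of adult testis and ovary, and they were 4 of the 26264 entries in each table. They were chosen by their F2 testis counts, since these differed strongly between crosses. Their F2 testis values are therefore given as a description, with no test. The data were 54 messenger RNA libraries, 27 per tissue, in 18 groups of 3.

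F1 mice were exposed through the drinking water of pregnant mice and then their own, from 8.5 days post-coitum until sacrifice, at 10 weeks of age for testis and 8 weeks for ovary. F1 controls received 0.001% ethanol. Dose 1 was 11.3 ng/L ibuprofen, 90 ng/L 2-hydroxyibuprofen, 22.5 ng/L diclofenac and 2.25 ng/L ethinylestradiol. Dose 2 was 113 ng/L ibuprofen, 225 ng/L 2-hydroxyibuprofen, 112 ng/L diclofenac and 45 ng/L ethinylestradiol. F2 groups are named by the exposed parent: mother at dose 1, mother at dose 2, father at dose 1, father at dose 2, both parents at dose 2, and control parents. The crosses were read with the father first, as in the titles. The labels say that founder males and females came from different litters, and the strain is not given in the sources used here. Libraries A to C of a group are labelled as separate samples. Whether each came from its own animal is not stated, and p-values cover only the spread among them, which may be technical. Total counts per library, in units of 1e6, were 31.8 to 46.4 in testis and 35.6 to 102 in ovary.

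Proteins of this family bind DNA through tandem C2H2 zinc fingers, each of which reads a few bases. Many carry a KRAB domain near the start, which recruits the corepressor TRIM28 and with it enzymes that write repressive marks on histones. They are best known for silencing transposable elements, in early embryos and in the germ line among other cells. Such genes often lie in clusters that grew by duplication, so neighbouring members can share long stretches of sequence.

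All 4 genes lie on the plus strand of chromosome 4 in the GENCODE annotation of GRCm38, an earlier build than the mm39 of the counts. Zfp990 (gene ID 101056073) spans 145510759 to 145539188, Zfp992 (433791) spans 146449023 to 146470292, Zfp981 (100041433) spans 146502027 to 146539395 and Zfp991 (666532) spans 147132038 to 147180579. The coding sequence of the annotated transcript was 1335 bases with 7 C2H2 fingers in Zfp981, 1719 bases with 11 fingers in Zfp991 and again in Zfp992, and 1815 bases with 13 fingers in Zfp990. The first 90 coding bases are shown, since they show which members match from the start codon on. Capitals mark the 15 positions at which the members differ, 5′ to 3′ from the start codon.
Zfp981: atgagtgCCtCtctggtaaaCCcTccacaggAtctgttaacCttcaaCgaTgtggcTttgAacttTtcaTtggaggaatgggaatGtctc
Zfp991: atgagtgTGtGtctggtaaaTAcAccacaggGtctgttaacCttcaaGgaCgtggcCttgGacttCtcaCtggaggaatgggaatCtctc
Zfp992: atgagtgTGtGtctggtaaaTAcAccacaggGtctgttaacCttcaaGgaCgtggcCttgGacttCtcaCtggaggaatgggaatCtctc
Zfp990: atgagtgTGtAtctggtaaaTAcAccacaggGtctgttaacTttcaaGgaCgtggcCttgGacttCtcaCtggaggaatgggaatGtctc
Zfp991 and Zfp992 had 0 differences in this stretch. Zfp990 differed from both at 3 positions and Zfp981 from each of the others at 14.

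Near-identity held for 1 pair only. Over the aligned coding sequence, Zfp991 and Zfp992 shared 1711 of 1719 bases (99.5%). Zfp990 shared 90.8% with Zfp991 and 90.7% with Zfp992, and Zfp981 shared 84.8% with each of the other members. The 100-base windows of each transcript, the length of a read, were searched for in all other GENCODE transcripts. In Zfp990, 98.4% of windows were in no transcript of another gene, and in Zfp981 this was 87.4%. The share was 71.4% in Zfp992 and 26.2% in Zfp991. Of the 2714 windows of Zfp991, 1620 were also in Znf41-ps, a zinc-finger pseudogene, and 1105 in Zfp992. How reads with several matches were counted is not given in the sources used here. Levels of Zfp991, Zfp992 and Znf41-ps are therefore uncertain as levels of single genes. Zfp981 shared 0 windows with Zfp991 or Zfp992, but 369 of its 2939 were in transcripts of genes outside the members. Windows were searched on the same strand only, so overlap with genes on the opposite strand was not covered.

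**Figure D1:**
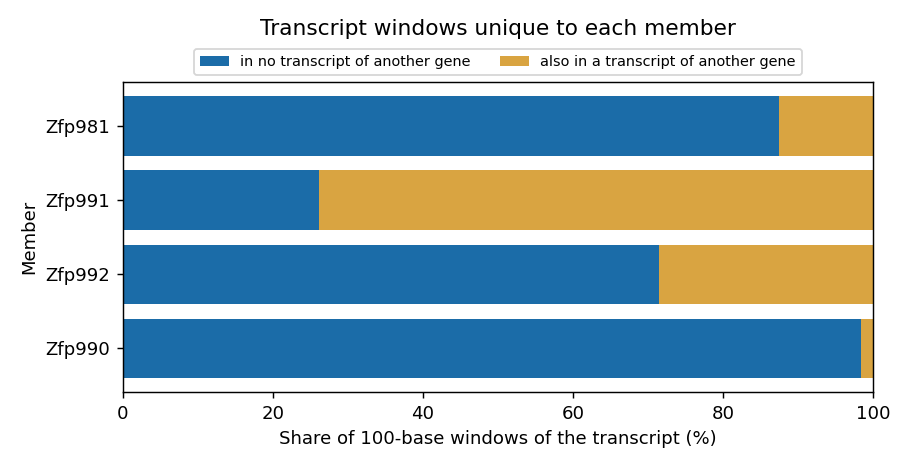
Share of 100-base windows (%, x axis) of each member's GENCODE transcript (y axis) that was in no transcript of another gene (blue) or also in one (yellow). Zfp991, with 26.2% unique windows, stands below the other 3 members, which had 71.4% to 98.4%.

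Of the 4 members, Zfp981 has a RefSeq promoter sequence in the table used here. The 250 bases before its start are shown because Zfp981 went with 2 other members in testis. They lie within the GENCODE span of the gene, at chr4:146514670-146514919 of GRCm38.p6, plus strand. Capitals mark GGGCGG and the CCAAT on the plus strand.
Zfp981 promoter: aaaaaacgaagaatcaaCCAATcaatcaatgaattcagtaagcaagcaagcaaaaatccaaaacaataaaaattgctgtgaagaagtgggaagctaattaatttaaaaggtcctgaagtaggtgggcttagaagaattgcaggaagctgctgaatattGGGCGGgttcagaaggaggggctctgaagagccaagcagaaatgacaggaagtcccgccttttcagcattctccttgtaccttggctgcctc
CCAAT, searched on both strands, had 2 matches, the second on the minus strand, overlapping GGGCGG and not marked as a match of its own. Among 27025 mouse promoters of this length, 34.5% held CCAAT and GGGCGG was held by 32.9%. The window held 0 matches to TATAAA, which 13% of promoters held, and 0 to TGACGTCA, which 1.62% held.

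In F1 testis, the library values of Zfp981, Zfp991 and Zfp992 were far apart within the exposed groups, and Zfp990 went the other way. Levels are CPM, counts scaled to a common library total and between libraries with TMM factors, and not corrected for gene length. Zfp981 had 7.30, 7.10 and 6.87 CPM in F1 control testes, 6.03, 0.401 and 0.508 CPM at dose 1, and 0.693, 3.27 and 5.84 CPM at dose 2 (libraries A, B and C). Every exposed library was below every control library, as for 7.27% of all genes at dose 1 and 17.9% at dose 2, and within each exposed group the values were widely spread. Zfp991 had 13.2, 15.0 and 17.0 CPM in controls, 16.2, 1.42 and 2.15 CPM at dose 1, and 1.73, 5.88 and 11.9 CPM at dose 2. Library A at dose 1 overlapped the controls, and the dose 2 libraries did not. Zfp992 had 28.1, 36.7 and 41.8 CPM in controls, 52.9, 5.86 and 15.3 CPM at dose 1, and 9.96, 14.4 and 23.8 CPM at dose 2. The low libraries of each exposed group were the same for all 3 genes: B and C at dose 1 and A at dose 2.

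Zfp990 had 33.2, 36.0 and 19.5 CPM in F1 control testes, 34.4, 52.9 and 66.6 CPM at dose 1, and 58.1, 41.4 and 19.7 CPM at dose 2. Its highest libraries were C and B at dose 1 and A at dose 2, those low for the other 3 members, and both exposed groups overlapped the controls. The sum of the 4 members averaged 87.3 ± 6.80 CPM in controls, 84.9 ± 24.5 CPM at dose 1 and 65.5 ± 4.66 CPM at dose 2 (SD, n = 3 each).

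Over the 9 dose comparisons tested in both tissues, 0 of 36 values of the members passed by edgeR, 5 had an unadjusted p under 0.05, and DESeq2 called 1. Among all genes, the share at an unadjusted p under 0.05 by edgeR ran from 5.27% to 24.5% over these comparisons. The 5 values are therefore not read as a result about the members. In F1 testis no member passed the threshold, an adjusted p of 0.05 over all genes tested with edgeR's quasi-likelihood test. At dose 1, 0 of 4 members were called, beside 6 of 18923 genes (0.0317%), or 1618 genes at an unadjusted p under 0.05 and 139 by DESeq2. The log2 fold change of Zfp981 at dose 1 was -1.65 ± 1.05 (SE, adjusted p = 0.742) and that of Zfp990 was 0.81 ± 0.43 (adjusted p = 0.683). At dose 2, 0 of 4 were called, beside 419 of 18923 genes (2.21%), 4461 at an unadjusted p under 0.05 and 1890 by DESeq2. There Zfp981 had a log2 fold change of -1.10 ± 1.01 (adjusted p = 0.545), Zfp991 of -1.20 ± 0.97 (0.486), Zfp992 of -1.14 ± 0.73 (0.385) and Zfp990 of 0.42 ± 0.43 (0.584), each with its adjusted p from edgeR. Leaving out single libraries moved these values without a call: Zfp981 at dose 1 lay between -3.94 and -1.15 over all settings, and Zfp990 at dose 2 between 0.05 and 0.75.

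The F2 testes showed the same opposition with larger steps between crosses. Zfp981 had 0.763, 0.942 and 0.488 CPM in offspring of dose 2 fathers, against 9.64, 16.6 and 6.26 CPM in offspring of control parents. Offspring of dose 1 fathers had 14, 13.3 and 13.9 CPM. All libraries of dose 2 fathers were below those of control parents, and those of dose 1 fathers lay within the control parents' range. For F2 testis, which led to the choice of the genes, the share of all genes without overlap was not counted. This holds for the other members below as well. Offspring of dose 1 mothers were split, with 0.823 and 0.605 CPM in A and C and 7.55 CPM in B. Offspring of dose 2 mothers had 7.52, 9.80 and 7.70 CPM, and those of 2 dose 2 parents had 7.62, 7.29 and 5.58 CPM. Both groups overlapped control parents.

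Zfp990 had 1.51, 1.02 and 2.86 CPM in testes of offspring of dose 1 fathers, against 18.5, 0.964 and 28.7 CPM with control parents. Library B of control parents was thus as low as the dose 1 father libraries, and the same library was the highest for Zfp981. With dose 2 fathers, Zfp990 had 56.6, 64.1 and 59.7 CPM, above every library of the other F2 crosses. It had 33.2, 19.2 and 36.7 CPM with dose 1 mothers, 25.7, 22.0 and 33.2 CPM with dose 2 mothers, and 39.4, 39.9 and 32.6 CPM with 2 dose 2 parents. The last of these groups did not overlap control parents and the mother groups did.

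Zfp991 and Zfp992, the near-identical pair, followed Zfp981 in F2 testis. Zfp991 had 1.44, 1.28 and 1.98 CPM with dose 2 fathers and 26.4, 27.6 and 25.1 CPM with dose 1 fathers, against 16.5, 32.1 and 11.8 CPM with control parents. Zfp992 had 3.32, 8.08 and 9.66 CPM with dose 2 fathers and 47.7, 37.7 and 38.8 CPM with dose 1 fathers, against 32.7, 49.5 and 23.6 CPM with control parents. In both genes the dose 2 father libraries were below, and the dose 1 father libraries within, the range of control parents. With dose 1 mothers, libraries A and C were low for Zfp991 (1.99 and 0.687 CPM) and for Zfp992 (7.07 and 5.20 CPM), and library B had 12.6 and 25.7 CPM. In the 2 remaining crosses, Zfp991 stayed between 10.9 and 16.9 CPM and Zfp992 between 24.4 and 39.3 CPM.

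As fitted log2 fold changes against control parents, offspring of dose 2 fathers had -3.89 for Zfp981, -3.68 for Zfp991, -2.33 for Zfp992 and 1.91 for Zfp990. With dose 1 fathers the values were 0.34, 0.39, 0.23 and -3.18 in the same gene order, and with dose 1 mothers -1.87, -2.00, -1.50 and 0.88. Dose 2 mothers gave -0.38, -0.51, -0.42 and 0.75, and 2 dose 2 parents gave -0.67, -0.36, -0.10 and 1.21. The 5 crosses share the 3 control-parent libraries, of which B stood apart for Zfp990, so the values are not independent of each other.

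**Figure D2:**
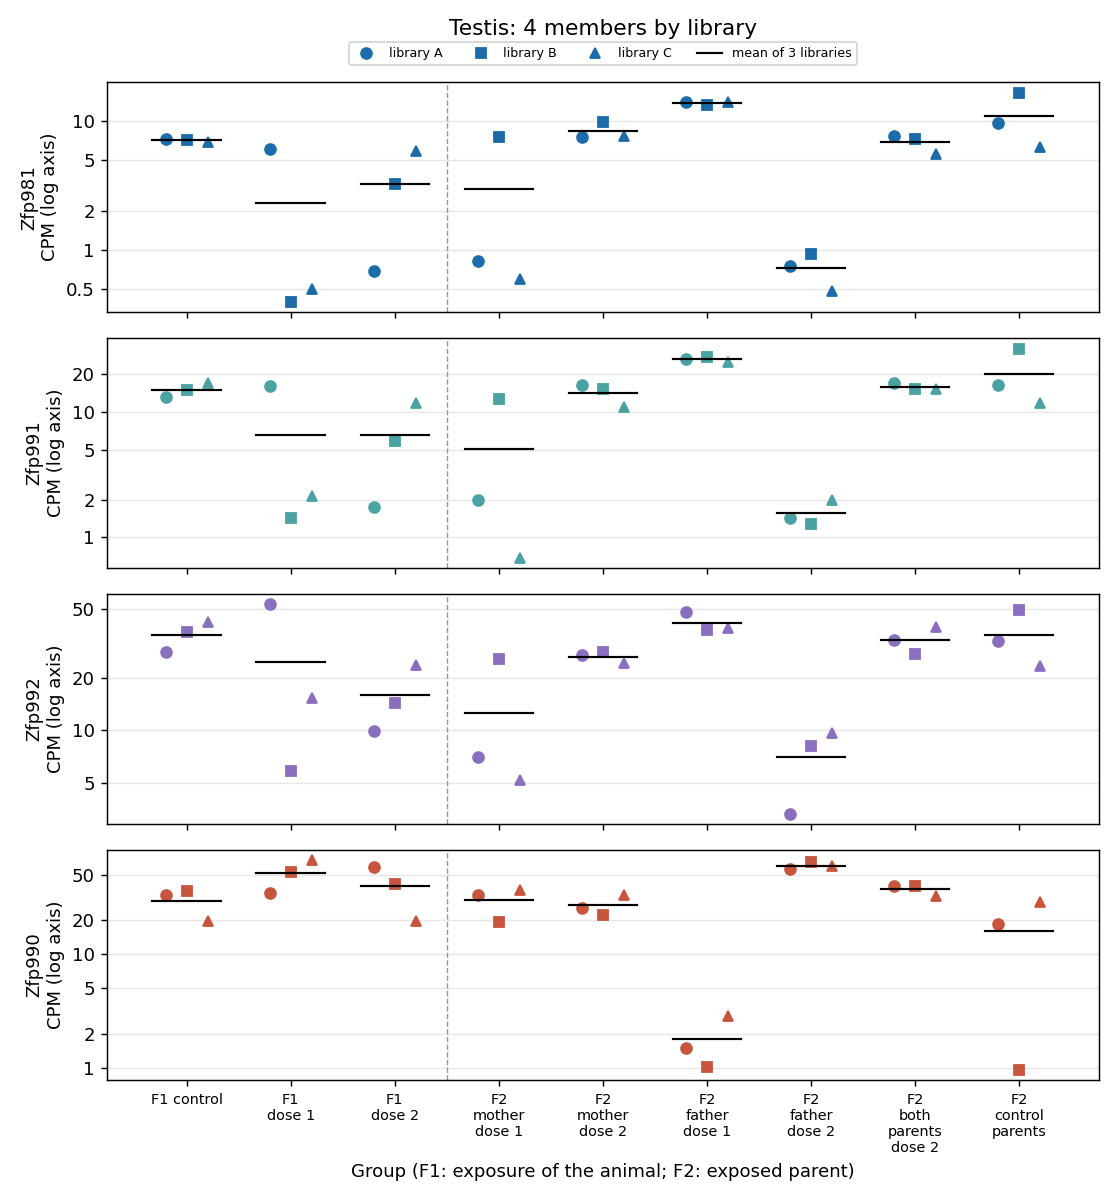
CPM (log axis, y) of the 4 members in each testis library, by group (x). Points are libraries A, B and C, black lines are means of 3 libraries, and the dashed line parts F1 from F2; libraries low for Zfp981 (0.401 to 0.942 CPM) are not low for Zfp990, and the 4 libraries low for Zfp990 (0.964 to 2.86 CPM) are the highest for Zfp981.

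Placed in order over all 27 testis libraries, 8 libraries stood apart at the low end for Zfp981. From 0.401 to 0.942 CPM there were 8 libraries: B and C of F1 dose 1, A of F1 dose 2, A and C of dose 1 mothers, and all 3 of dose 2 fathers. The next library had 3.27 CPM, 3.47 times the highest of these, which was the widest step for this gene. Above it the steps were smaller: 1.71 times from 3.27 to 5.58 CPM and 1.35 times from 9.80 to 13.3 CPM. For description the libraries were divided at 2 and 12 CPM, limits set after the values were seen, of which the upper one lies at the smaller of these 2 steps. This gave a middle range of 15 libraries, 3.27 to 9.80 CPM, and a high range of 4, 13.3 to 16.6 CPM: all 3 of dose 1 fathers and B of control parents. Zfp991 was at 0.687 to 2.15 CPM in the same 8 libraries, 5.88 to 17.0 CPM in the 15 and 25.1 to 32.1 CPM in the 4, again without overlap. Zfp992 overlapped, with 3.32 to 15.3, 14.4 to 52.9 and 37.7 to 49.5 CPM.

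For Zfp990 the same 8 libraries held 33.2 to 66.6 CPM, the 15 held 18.5 to 41.4 CPM and the 4 held 0.964 to 2.86 CPM. Its widest step, from 2.86 to 18.5 CPM (6.47 times), set the 4 libraries apart. Between the lowest and highest testis library, Zfp981 differed 41.3-fold, Zfp991 46.7-fold, Zfp992 16-fold and Zfp990 69.1-fold. The sum of the 4 members differed 2.54-fold, between 43.1 and 109.6 CPM. By the standard deviation of log2 CPM, the members ranked 35 (Zfp981), 43 (Zfp991), 126 (Zfp992) and 32 (Zfp990) among 16301 testis genes with a mean of at least 1 CPM. These ranks include the F2 libraries that led to the choice of the genes.

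By group means in testis, Zfp981 was lowest with dose 2 fathers (0.731 ± 0.228 CPM) and highest with dose 1 fathers (13.7 ± 0.378 CPM; SD, n = 3 each). In between, the order was F1 dose 1 (2.31 ± 3.22), dose 1 mothers (2.99 ± 3.95), F1 dose 2 (3.27 ± 2.57), 2 dose 2 parents (6.83 ± 1.09), F1 control (7.09 ± 0.213), dose 2 mothers (8.34 ± 1.27) and control parents (10.8 ± 5.26 CPM). Of the 8 neighbouring pairs in this order, only dose 2 mothers and F1 controls did not overlap. Zfp990 was lowest with dose 1 fathers (1.79 ± 0.954 CPM) and highest with dose 2 fathers (60.1 ± 3.78 CPM), and every neighbouring pair in its order overlapped.

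In the 9 F1 testis libraries, which the choice of the genes did not use, Pearson's r of log2 CPM was 0.98 between Zfp981 and Zfp991, 0.87 between Zfp981 and Zfp992 and 0.93 between Zfp991 and Zfp992. With Zfp990 it was -0.82 for Zfp981, -0.82 for Zfp991 and -0.66 for Zfp992. Across all 27 testis libraries, 18 of which are the F2 libraries that led to the choice, r was 0.97 between Zfp981 and Zfp991, 0.90 between Zfp981 and Zfp992 and 0.95 between Zfp991 and Zfp992. With Zfp990, this r was -0.65 for Zfp981, -0.63 for Zfp991 and -0.56 for Zfp992. The points share tissue, libraries and, for Zfp991 and Zfp992, sequence. Since the low libraries stand apart, r was also taken within the ranges of Zfp981: between Zfp981 and Zfp991 it was -0.10 in the 8 low libraries and 0.73 in the 15 middle ones, where Spearman's rho was 0.23. Between Zfp991 and Zfp992 this r was 0.57 and 0.83, and between Zfp981 and Zfp992 it was -0.22 and 0.39. A cut on Zfp981 narrows its spread, which lowers its r in advance. Its low libraries had only 15 to 33 counts. These values thus cannot tell whether the members go together within a range. The r over all libraries holds the steps between the ranges as well.

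**Figure D3:**
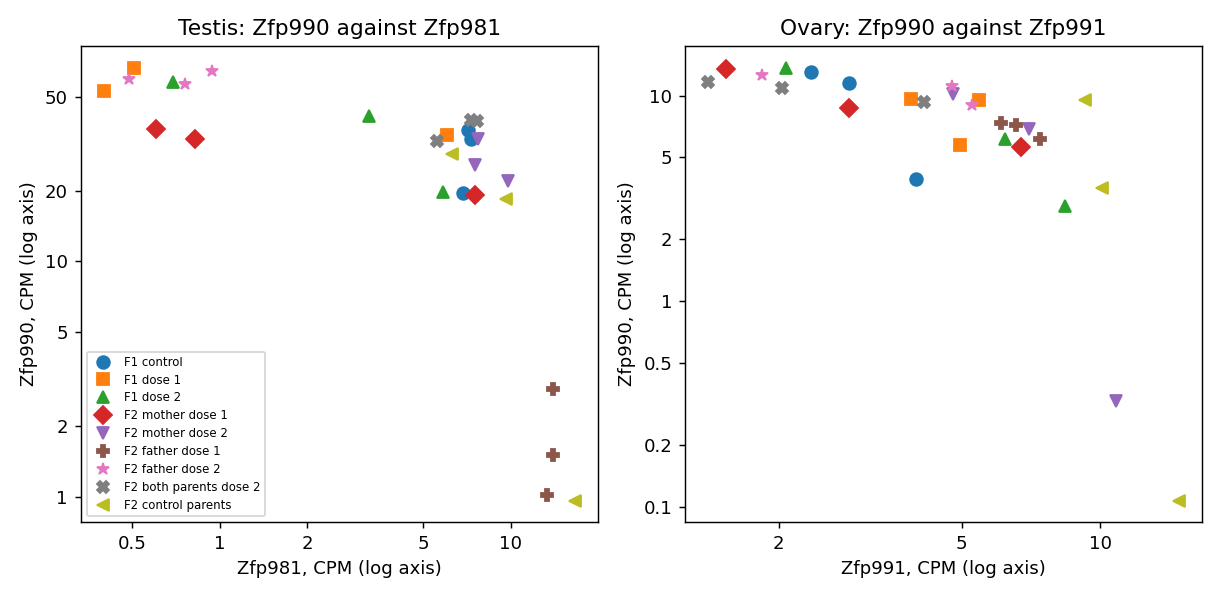
Zfp990 (CPM, log axis, y) against Zfp981 in the 27 testis libraries (left) and against Zfp991 in the 27 ovary libraries (right), both in CPM on a log x axis, with a symbol for each group. In testis 4 libraries lie at the lower right (0.964 to 2.86 CPM of Zfp990), and in ovary 2 do (0.107 and 0.328 CPM).

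In ovary, Zfp991 was the member whose F2 group means differed most, and its means were lower with exposed parents. With all libraries kept, no cross passed by edgeR. Over single ovary libraries Zfp990 varied more, 128-fold against 10.5-fold for Zfp991. Zfp991 had 1.41, 4.15 and 2.04 CPM with 2 dose 2 parents, against 14.8, 9.27 and 10.1 CPM with control parents. It had 6.72, 1.54 and 2.84 CPM with dose 1 mothers and 7.00, 4.80 and 10.8 CPM with dose 2 mothers. With dose 1 fathers it had 6.58, 7.41 and 6.09 CPM, and with dose 2 fathers 4.76, 5.28 and 1.84 CPM. Every library was below those of control parents in 4 of the 5 crosses, and library C of dose 2 mothers overlapped them. Of all genes, 7.71% had every library below control parents with dose 1 mothers, 8.83% with dose 1 fathers, 10.9% with dose 2 fathers and 15% with 2 dose 2 parents. The 5 crosses share the 3 control-parent libraries, so the 4 crosses are not independent of each other. Over all genes, edgeR called 0% with dose 1 mothers and with dose 1 fathers, 0.00573% with dose 2 fathers and 0.688% with 2 dose 2 parents. Control parents were the highest group of both generations for Zfp991, at 11.4 ± 3.0 CPM, and F1 controls had 3.06 ± 0.836 CPM (SD, n = 3 each).

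With 2 dose 2 parents, the log2 fold change of Zfp991 in ovary was -2.16 ± 0.53 (SE; edgeR, adjusted p = 0.0557), which missed the threshold. In that comparison 0 of 4 members were called, beside 120 of 17454 genes (0.688%), or 4275 genes (24.5%) at an unadjusted p under 0.05. DESeq2 called Zfp991 there (log2 fold change -2.17, adjusted p = 0.00153), as it did 1791 of the 15167 genes it gave an adjusted p (11.8%). Without library B of 2 dose 2 parents edgeR called it too (-2.72, adjusted p = 0.0293), as it did 1443 of 17692 genes (8.16%). Its adjusted p ranged up to 0.249 over the other settings. In the other crosses Zfp991 was at -1.61 ± 0.52 with dose 1 mothers (edgeR, adjusted p = 0.364), -1.52 ± 0.52 with dose 2 fathers (0.210), -0.75 ± 0.51 with dose 1 fathers (0.685) and -0.60 ± 0.50 with dose 2 mothers (0.909).

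Counts over all genes were low in the other ovary F2 comparisons. No member and 0 of 17454 genes (0%) passed with dose 1 mothers, dose 2 mothers or dose 1 fathers by edgeR. At an unadjusted p under 0.05 there were 1606, 1017 and 1681 genes, and DESeq2 called 121, 13 and 82. With dose 2 fathers 1 gene passed (0.00573%), which was none of the members, beside 2765 genes at an unadjusted p under 0.05 and 340 called by DESeq2.

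Zfp990 in ovary was near 0 in single F2 libraries. It had 6.86, 10.2 and 0.328 CPM with dose 2 mothers, against 0.107, 9.48 and 3.55 CPM with control parents. The lowest library rests on 17 counts with dose 2 mothers and on 6 counts with control parents. The next lowest of the 27 libraries had 2.90 CPM, 8.83 times more. These 2 libraries, C of dose 2 mothers and A of control parents, were also the highest for Zfp991. Zfp990 had 11.6, 9.30 and 10.9 CPM with 2 dose 2 parents, 11.1, 8.98 and 12.5 CPM with dose 2 fathers, 7.19, 6.18 and 7.36 CPM with dose 1 fathers, and 5.62, 13.4 and 8.74 CPM with dose 1 mothers. All of these groups overlapped control parents, and the log2 fold changes lay between 0.41 ± 0.97 (dose 2 mothers) and 1.31 ± 0.98 (dose 2 fathers; edgeR, adjusted p = 0.974 and 0.533).

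Zfp992 varied 16-fold over the 27 testis libraries and 1.95-fold over the 27 ovary libraries, where it lay between 6.90 and 13.5 CPM. It had 8.76, 7.75 and 9.0 CPM with dose 1 mothers and 9.30, 7.97 and 7.97 CPM with dose 2 mothers, against 12.9, 11.2 and 9.42 CPM with control parents. Neither group overlapped control parents, as for 7.71% of all genes with dose 1 mothers and 5.42% with dose 2 mothers in this direction, and the log2 fold changes of -0.38 ± 0.15 and -0.41 ± 0.15 did not pass (edgeR, adjusted p = 0.431 and 0.756). Zfp981 stayed between 0.260 and 0.999 CPM in ovary (12 to 61 counts), and none of its ovary dose comparisons passed by edgeR. Small differences could be missed at so few counts.

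In F1 ovary, Zfp991 had 3.99, 2.85 and 2.36 CPM in controls, 4.97, 5.46 and 3.87 CPM at dose 1 and 8.41, 6.21 and 2.08 CPM at dose 2. Exposed libraries overlapped controls at both doses. No member and 0 of 17168 genes (0%) passed at dose 1 or at dose 2 by edgeR, beside 904 and 2053 genes at an unadjusted p under 0.05 and 78 and 353 by DESeq2. Zfp991 was at 0.64 ± 0.46 at dose 1 and 0.86 ± 0.46 at dose 2 (log2 fold change ± SE; edgeR, adjusted p = 0.726 and 0.425). Zfp990 had 3.94, 11.5 and 13 CPM in controls, 5.76, 9.51 and 9.67 CPM at dose 1 and 2.90, 6.14 and 13.7 CPM at dose 2. Libraries A and B at dose 2 stood apart in oviduct epithelium markers (summed 1280 and 474 CPM, against 45.6 to 285 CPM in the other F1 ovaries), and these were the high Zfp991 and low Zfp990 libraries of their group. With all libraries Zfp990 was at -0.30 ± 0.58 at dose 2 (edgeR, adjusted p = 0.787). Without A and B, library C was the 1 library left at dose 2, and its log2 fold changes against controls were -0.57 for Zfp991 and 0.53 for Zfp990, opposite in sign and given with no test. The part of oviduct tissue in these values was not tested.

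Whether dose effects in F1 testis differed from those in F1 ovary was tested as an interaction, which was added after the data were seen. For Zfp991 the testis effect minus the ovary effect was -1.84 ± 1.07 at dose 1 and -2.03 ± 1.07 at dose 2 on the log2 scale (edgeR, adjusted p = 0.815 and 0.544). None of the 4 members passed in either interaction, beside 2 of 20351 genes at dose 1 (0.00983%) and 3 at dose 2 (0.0147%).

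**Figure D4:**
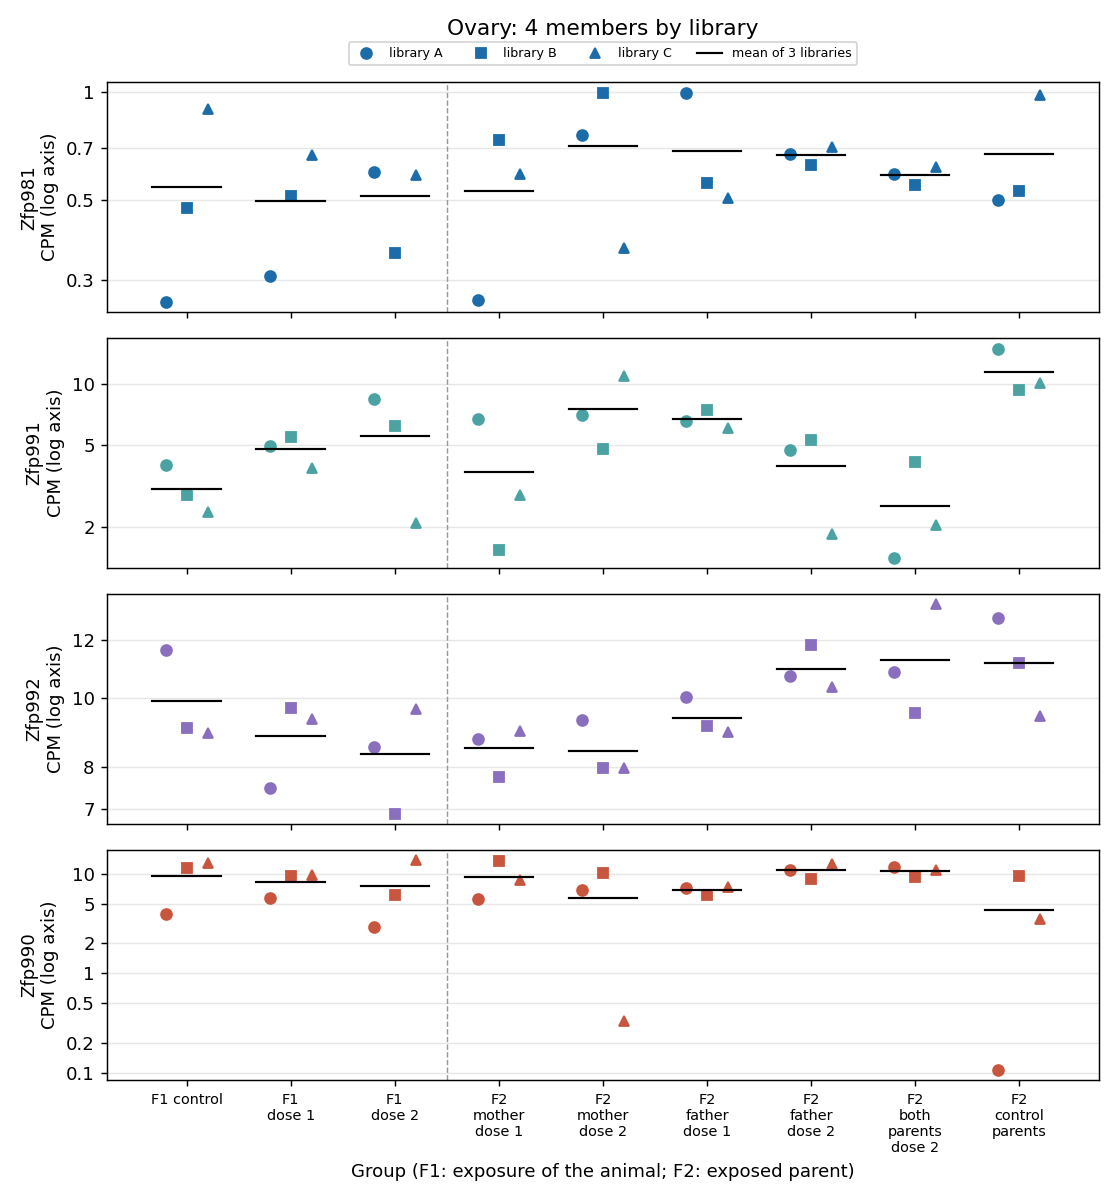
CPM (log axis, y) of the 4 members in each ovary library, by group (x); points are libraries A, B and C, black lines are means of 3 libraries, and the dashed line parts F1 from F2. Zfp991 is highest with control parents (9.27 to 14.8 CPM), Zfp990 has 2 libraries near 0, and Zfp992 stays between 6.90 and 13.5 CPM.

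Of the members opposed to Zfp990 in testis, only Zfp991 was opposed to it in ovary as well. Zfp981 had r = 0.53 with Zfp990 in F1 ovary and 0.31 over all 27 ovary libraries, on few counts. For Zfp992 with Zfp990 these values were 0.08 and -0.09. Between Zfp991 and Zfp990, r was -0.80 in the 9 F1 ovary libraries, beside -0.82 in the 9 F1 testis libraries, and -0.66 in the 18 F2 ovary libraries. Zfp992, with r = 0.93 to Zfp991 in F1 testis, had -0.39 in F1 ovary and -0.05 over all 27 ovary libraries. Zfp981, with 0.98 in F1 testis, had -0.36 in F1 ovary and -0.18 over all 27. The sum of the 4 members lay between 18.5 and 30.5 CPM in ovary, a 1.64-fold range.

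All 4 members were higher in F1 control testis than in F1 control ovary. The log2 fold change of testis over ovary was 4.25 ± 0.93 for Zfp981, 2.84 ± 0.80 for Zfp991, 2.39 ± 0.54 for Zfp992 and 2.19 ± 0.54 for Zfp990 (SE; edgeR, adjusted p = 4.65e-04, 0.00348, 6.32e-04 and 0.00135). Zfp981 averaged 7.09 ± 0.213 CPM in testis and 0.545 ± 0.325 CPM in ovary, and Zfp990 averaged 29.6 ± 8.83 CPM in testis and 9.47 ± 4.84 CPM in ovary (SD, n = 3 each). Neither gene overlapped between the tissues, but the share of all genes without such overlap was not counted. These CPM were scaled within each tissue separately. All 4 members passed, beside 17512 of 20351 genes (86%), 8863 of them higher in testis, so a call here is the rule among genes. Tissue is also age, 10 weeks in males and 8 weeks in females. In bulk tissue, fewer cells of a type and less RNA per cell cannot be told apart.

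The tissue labels held by their markers. The 8 spermatid markers summed to 9340 to 22928 CPM in testis and 0.598 to 3.73 CPM in ovary, and the 8 oocyte markers to 4.65 to 8.77 CPM in testis and 223 to 549 CPM in ovary. Within testis, summed markers of 10 cell types, ovary types among them, had r between -0.43 and 0.42 with the log2 CPM of the members. The 0.42 was for granulosa markers with Zfp992. Within ovary these values lay between -0.46 and 0.57, the highest being granulosa and oocyte markers with Zfp992 (0.57 each). The lowest was for spermatid markers, which were near 0 in ovary, with Zfp981.

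Over the 27 libraries of a tissue, the genes most like each member by Pearson's r (3 per member) were on chromosome 4 for 12 of 12 in testis. In ovary this was 6 of 12. Of these, 8 in testis and 1 in ovary lay within 6 places of their member. A gene was counted once for each member it was listed with, so the 12 are not all different genes. The share of all genes on chromosome 4 was not counted. The testis lists rest in part on the F2 libraries that led to the choice of the members. In the 9 F1 testis libraries alone, 3 of 12 were on chromosome 4: Znf41-ps for Zfp981 and, with 1700095A21Rik, for Zfp991. The 3 leading genes there were all on other chromosomes for Zfp992 (Polr2f, 4930554I06Rik and Chmp4b, r of 0.97 to 0.98) and for Zfp990 (Gpr37, Zfhx4 and Samd9l, r of 0.92 to 0.97). By Spearman's rho, 0 of 12 were on chromosome 4 in the 9 F1 testis libraries and 9 of 12 over the 27. For Zfp981 in testis, the 3 genes with the highest Pearson r over 27 libraries were Znf41-ps (0.98), 1700095A21Rik (0.94) and Zfp979 (0.88), of 16297 genes with a mean of at least 1 CPM. The same 3 genes led for Zfp991 (0.99, 0.98 and 0.94) and, with 1700095A21Rik first, for Zfp992 (0.95 to 0.96). Znf41-ps ranged from 1.54 to 86 CPM in testis and Zfp979, another zinc-finger gene, from 0.055 to 14.5 CPM. Of the windows of Zfp991, 59.7% were also in Znf41-ps, and of those of Zfp992, 23.5%. Whether shared reads raise these r values was not tested. GENCODE places 1700095A21Rik on the strand opposite to Zfp981 and overlapping it. The strand setting of the counting is not given, so reads of the pair may not have been told apart. In ovary 1700095A21Rik had at most 0.0893 CPM.

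For Zfp990 in testis the leading genes were Zfp987 (r = 0.91), a zinc-finger gene of the same cluster, Gm13205 (0.85) and Tnfrsf8 (0.78), which encodes the TNF receptor family member CD30. All of these lie on chromosome 4. In ovary, Zfp991 went with Znf41-ps (0.96), Zfp982 (0.92) and Pramel27 (0.90), and Zfp990 with AAdacl4fm3 (0.92), Clcn6 (0.77) and Zdhhc22 (0.74), all on chromosome 4 but Zdhhc22. For ovary Zfp981 (Taf5l, Med26 and Gm15545, r of 0.64 to 0.65) and Zfp992 (Lrrc42, Sp110 and Nudt19, r of 0.79 to 0.80) only Lrrc42 is on chromosome 4, and it lies 685 genes away. Median r over all genes was between -0.02 and 0.02 for each member and tissue.

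Likeness among neighbours was patchy rather than even. The 6 genes on either side of each member, in RefSeq order, came to 22 genes, of which 17 had a median of at least 1 CPM in testis. Of the 22, 4 had an r of at least 0.7 with Zfp981, Zfp991 and Zfp992 alike: Znf41-ps, Gm13238, 1700095A21Rik and Zfp979. Tnfrsf8 and Zfp987 had this with Zfp990. Genes between them in the order varied. Gm13034 and Zfp988 had an r of -0.03 each with Zfp981, whereas 4933438K21Rik had 0.45 with Zfp981, 0.55 with Zfp991 and 0.63 with Zfp992. Zfp978, whose median of 0.502 CPM was under the limit of 1 CPM, had 0.49, 0.57 and 0.64 in the same gene order. Zfp982 had 0.31, 0.42 and 0.54. In ovary, 10 of the 22 neighbours had a median of at least 1 CPM. Of these 10, 3 had an r of at least 0.7 with Zfp991 (Znf41-ps, Gm13238 and Zfp982), and 1 with Zfp990 (Zfp987). Below that limit, Zfp534 (median 0.420 CPM) had 0.71 with Zfp990. Zfp979, which followed 3 members in testis, had r = -0.04 with Zfp991 in ovary.

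**Figure D5:**
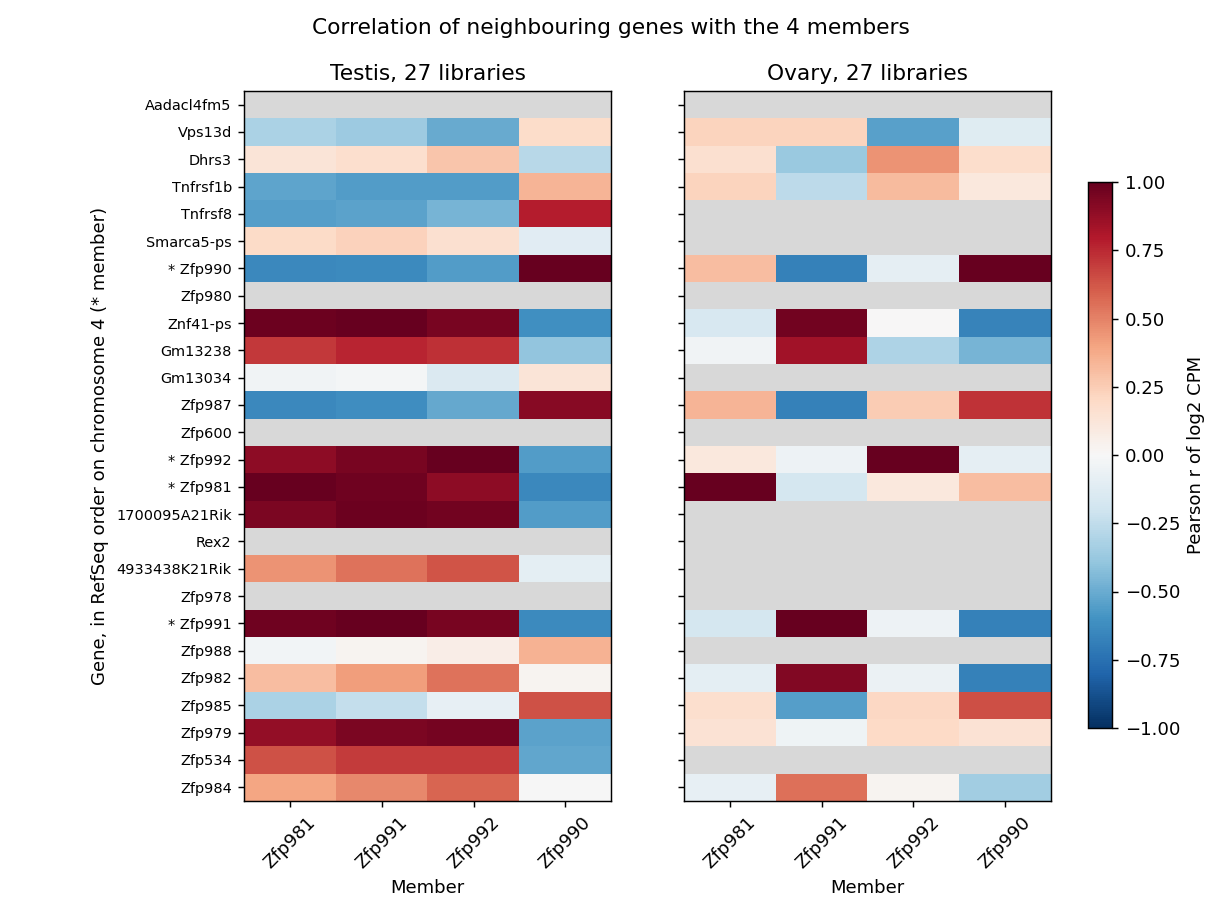
Pearson's r of log2 CPM over 27 libraries between each gene (y, in RefSeq order, members starred) and the 4 members (x), in testis (left) and ovary (right); red is positive, blue negative, and grey marks non-members with a median under 1 CPM. In testis 4 of 22 neighbours reach 0.7 with Zfp981, Zfp991 and Zfp992. With these 3 members, other neighbours shown between them run from -0.64 (Zfp987 with Zfp981) to 0.63 (4933438K21Rik with Zfp992).

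Among 13 other zinc-finger genes of distal chromosome 4, 0 passed in any of the 9 dose comparisons by edgeR. Their median log2 fold change lay between -0.26 (F1 testis, dose 2) and 0.62 (F2 ovary, dose 2 fathers), against -0.01 to 0.02 over all genes. Of the 13, 9 were higher and 1 was lower in F1 control testis than in ovary, beside 43.6% of all genes higher and 42.5% lower, with a median log2 fold change of 1.69 against 0.002 over all genes. Zfp534 was higher by 3.35 ± 0.39 and Zfp982 by 2.70 ± 0.39 (edgeR, adjusted p = 6.15e-07 and 6.98e-06), and Gm13212 was lower, at -1.10 ± 0.26 (8.80e-04).

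Of 21 genes for the corepressor machinery of KRAB proteins, 0 passed in the dose comparisons, and their medians lay between -0.20 and 0.17. Between tissues, 9 were higher in testis and 8 lower, so that 17 of 21 were called, near the 86% of all genes. Trim28 itself was higher by 0.57 ± 0.10 (edgeR, adjusted p = 3.69e-05). Dnmt3l, a DNA methylation cofactor of germ cells, was higher by 2.26 ± 0.37, and Dnmt3a, a DNA methyltransferase, was lower, at -2.75 ± 0.18 (adjusted p = 2.97e-05 and 5.11e-10). The median of the 21 was 0.05, against 0.002 over all genes.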

How the data were processed

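Messenger RNA of 27 testis and 27 ovary samples was sequenced from a stranded ligation kit at 100 nt, per the labels' protocols. For mm39, the submitters' processing notes name featureCounts 2.0.3, TopHat2 2.1.1 and Bowtie2 2.4.5, SAMtools 1.13, FastQC 1.19, bcl2fastq 2.20 and DESeq2 1.32.0, with no roles. How strand and reads with several matches were handled, and the annotation, are not given in the sources used. Each tissue has a table of 26264 entries that holds raw counts, whole numbers without normalisation, as deposited. Of the entries, 133 carry a symbol without an ID and stayed in totals and tests.

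Columns were matched to samples by code. Libraries of a group always differed beyond sampling noise (lowest chi-square per gene 3.24). Here, edgeR 4.0.16 in R 4.3.3 was used: TMM factors, filterByExpr with a minimum count of 10, robust quasi-likelihood test, Benjamini-Hochberg adjustment over all genes and a threshold of 0.05. The 9 F1 or 18 F2 libraries of a tissue shared a fit, and 18 F1 libraries the tissue contrast. log2 CPM used a prior count of 2, and printed CPM none. Scripts were tested on simulated data. Alternatives were RLE factors, DESeq2 1.42.0, no filter, a replicate block, all 27 libraries, only the 6 compared, and leaving out each library. Letters A to C are shared by the groups. Same-lettered libraries deviated together (r over 0.1 for all 3 letters) in ovary F1 dose 1, ovary F2 dose 1 mothers and ovary F2 dose 2 fathers. The values printed in the sections above are nevertheless from fits by group alone. Pairing by letter entered only the replicate block.

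The genes named are the 4 members, the 3 most correlated genes per member and tissue (mean of at least 1 CPM), and 6 genes on either side. Of 2 gene lists, 13 genes of 25 written for distal chromosome 4 were found besides 3 older names of members, and 21 of 21 corepressor genes; examples named for the lists were chosen after their values were seen. The members and lists were chosen with earlier results of these data known. Gene names and order came from RefSeq GRCm38.p6 (26083 of 26131 IDs matched), and the promoter is RefSeq's.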

Additional observations from a re-analysis of the deposited data

How the results depend on the processing

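The count of members called was the same in 118 of 120 alternative fits: 4 of 4 between testis and ovary, and 0 of 4 in the dose comparisons. The exceptions were in ovary F2 with 2 dose 2 parents, where 1 member, Zfp991, was called by DESeq2 and without library B of that group, so that the count ran from 0 to 1 over single libraries left out. A replicate block on the letters gave 0 of 4 in all 9 dose comparisons and changed no call. Of 480 member log2 fold changes under alternatives, 447 kept direction and side of the threshold and 31 reversed, all of them in ovary and uncalled. The block turned Zfp981 to 0.0533 at F1 dose 2 and to -0.00107 with dose 2 fathers. Without libraries A and B of ovary F1 dose 2, an alternative chosen after seeing the data that leaves 1 library at dose 2, whose spread is taken from the other groups, Zfp981, Zfp991 and Zfp990 turned to 0.12, -0.57 and 0.53 at dose 2. With single libraries left out, Zfp981 in ovary ran from -0.47 to 0.42 at F1 dose 1, -0.40 to 0.49 at F1 dose 2, -0.66 to 0.0462 with dose 1 mothers, -0.25 to 0.47 with dose 2 mothers, -0.32 to 0.43 with dose 1 fathers, -0.16 to 0.39 with dose 2 fathers and -0.34 to 0.21 with 2 dose 2 parents. Zfp990 ran from -0.55 to 0.11 and from -1.05 to 0.0805 at F1 doses 1 and 2, and from -0.28 to 1.71 with dose 2 mothers. Zfp992 ran from -0.12 to 0.10 with dose 2 fathers and from -0.12 to 0.15 with 2 dose 2 parents. The cause was not tested. In F2 testis, 176 of 180 log2 fold changes moved by less than the replicate SD. Leaving out 1 library can hardly move a group mean by more than that SD, which split groups also widen. This count was thus nearly fixed in advance and cannot show that the values are stable. Without library B of dose 1 mothers Zfp981 was at -3.93, Zfp991 at -3.92 and Zfp992 at -2.53, and without library B of control parents Zfp991 with dose 1 fathers was at 0.91. Of the 24 most like genes by Pearson's r, 15 were also most like by Spearman's rho and 6 in the F1 libraries alone. Genes called over all genes varied more: DESeq2 called 1890 in testis F1 dose 2 and 1791 in ovary F2 with 2 dose 2 parents. Leaving out single libraries gave 6 to 223 and 0 to 1443 there, and 3 to 315 in testis F1 dose 1.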
